A study of Mus musculus with 4 samples.

Results

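The vessel endothelial cells of the ganglia were 91 of the 9785 segmented cells in 3 sections of vagal ganglia measured with Xenium in situ probes. They were chosen by counts. A cell needed at least 5 transcripts in all, at most 1 transcript of the 4 neuron genes *Snap25*, *Tubb3*, *Scg2* and *Gap43*, at most 1 of the fat genes *Car3* and *Pck1*, at most 1 of *Cd36*, and at least 2 of the 8 endothelial genes *Eng*, *Kdr*, *Tie1*, *Plvap*, *Clec14a*, *Sox17*, *Vwf* and *Gpihbp1*. The 15 genes of this rule chose the cells, so their levels in them are a description and no finding.

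All sections were labelled as from adult male C57BL/6 mice, while the methods of the study name C57BL/6J mice of both sexes. The mice were given *A. alternata* extract, an allergen of the mould *Alternaria alternata*, by 50 μL intranasal doses at 25 μg/mL on days 0, 3, 6 and 9. The ganglia were taken 16 hours after the last dose, fixed in 4% paraformaldehyde and cut at 5 μm. There was no control section, so no effect of the allergen was measured, and a lung section was not analysed here. The sources used here do not say whether the 3 sections are from different mice, so the p-values below cover the spread between sections, which may be technical.

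Endothelial cells line blood and lymphatic vessels. In nerve ganglia they form small vessels wrapped by pericytes and smooth muscle cells, together called mural cells, and lie among neurons, satellite glia, Schwann cells and connective tissue. *Kdr* encodes the main receptor for the growth factor VEGF, *Eng* a co-receptor for the TGF-beta family, *Tie1* a receptor kinase of the angiopoietin pathway, *Vwf* the clotting protein von Willebrand factor, *Plvap* the protein of the diaphragms of fenestrated vessels, *Sox17* a transcription factor of arteries, *Clec14a* a surface lectin, and *Gpihbp1* the capillary protein that holds lipoprotein lipase.

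The promoters of 4 of the 8 endothelial genes were in the RefSeq table of mouse promoters (GRCm38.p6), and are shown because these genes define the cells. Each sequence is the 250 bases before the transcription start, 5′ to 3′ on the gene's strand. Capitals mark AGGAAG or CGGAAG on either strand, forms of the short site bound by ETS factors, a family with known roles in endothelial genes. *Eng* lies at chr2:32646345-32646594 (plus strand), *Tie1* at chr4:118489850-118490099 (minus strand), *Kdr* at chr5:75978456-75978705 (minus strand) and *Clec14a* at chr12:58269259-58269508 (minus strand).
Eng: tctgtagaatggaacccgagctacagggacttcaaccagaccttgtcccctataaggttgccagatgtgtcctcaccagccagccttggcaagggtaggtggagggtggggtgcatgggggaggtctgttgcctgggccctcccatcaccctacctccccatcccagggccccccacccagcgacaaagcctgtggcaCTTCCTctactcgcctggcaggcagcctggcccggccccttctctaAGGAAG
Tie1: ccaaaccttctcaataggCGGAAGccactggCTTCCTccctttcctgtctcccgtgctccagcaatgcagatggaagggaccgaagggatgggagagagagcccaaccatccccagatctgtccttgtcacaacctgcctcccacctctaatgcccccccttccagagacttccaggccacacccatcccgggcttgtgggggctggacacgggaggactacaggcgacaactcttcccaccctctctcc
Kdr: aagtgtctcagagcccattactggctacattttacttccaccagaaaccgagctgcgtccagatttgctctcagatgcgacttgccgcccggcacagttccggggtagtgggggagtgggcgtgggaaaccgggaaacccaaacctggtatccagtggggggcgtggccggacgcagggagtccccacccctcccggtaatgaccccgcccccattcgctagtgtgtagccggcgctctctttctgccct
Clec14a: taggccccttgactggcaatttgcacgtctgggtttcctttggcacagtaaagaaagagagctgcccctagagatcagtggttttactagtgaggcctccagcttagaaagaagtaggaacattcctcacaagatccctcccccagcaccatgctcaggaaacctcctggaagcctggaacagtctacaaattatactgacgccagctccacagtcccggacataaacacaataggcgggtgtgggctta
The motif was in 2 of these 4 windows, against 39.2% of the 32851 promoters of the table searched over the same 250 bases. In *Eng* the matches began 52 and 6 bases before the start, and in *Tie1* 232 and 219 bases before it. No such letters were in the windows of *Kdr* and *Clec14a*. A match is a description of the letters and not a binding site.

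Sections 1, 2 and 3 held 23, 26 and 42 endothelial cells. These were 1.39% (95% Clopper-Pearson interval 0.883 to 2.08), 1.82% (1.19 to 2.66) and 1.84% (1.33 to 2.48) of the 1655, 1426 and 2281 cells that met the same total and neuron limits, with a mean of 1.68% ± 0.256 (SD, n = 3 sections). The 3 intervals overlapped, and cover counting error only. The cells held 309, 357 and 759 transcripts, and 241, 287 and 645 outside the 15 rule genes, so that section 3 carried over 1 in 2 of their transcripts. The median endothelial cell had 15 transcripts, compared with 10 in the 5271 other non-neuronal cells. No cell name was shared by sections. The whole table held 470 genes, and the sections had 70313 to 108121 transcripts.

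Few transcripts placed a cell among the endothelial cells. With the other limits alike, 4011 cells had none of the 8 endothelial genes, 237 had 1 transcript, 59 had 2, 18 had 3 and 14 had 4 or more. The 59 cells with 2 thus lay just inside the limit and the 237 with 1 just outside it. Of the 91 cells, 62 carried 2 different endothelial genes, 13 carried 3 and 5 carried 4. The remaining 11 rested on 1 gene alone, which was *Vwf* in 6, *Tie1* in 3, *Kdr* in 1 and *Plvap* in 1.

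*Tie1* was carried by 43 of the 91 cells, with 10, 14 and 28 transcripts in sections 1, 2 and 3. *Vwf* was carried by 41 cells, with 21, 20 and 23 transcripts. *Eng* was in 31 cells, *Clec14a* in 26, *Kdr* in 24, *Plvap* in 14, *Sox17* in 11 and *Gpihbp1* in 4. The pair found together most often was *Tie1* with *Vwf*, in 15 cells, and *Tie1* shared 11 cells each with *Eng* and *Kdr*.

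**Figure D1:**
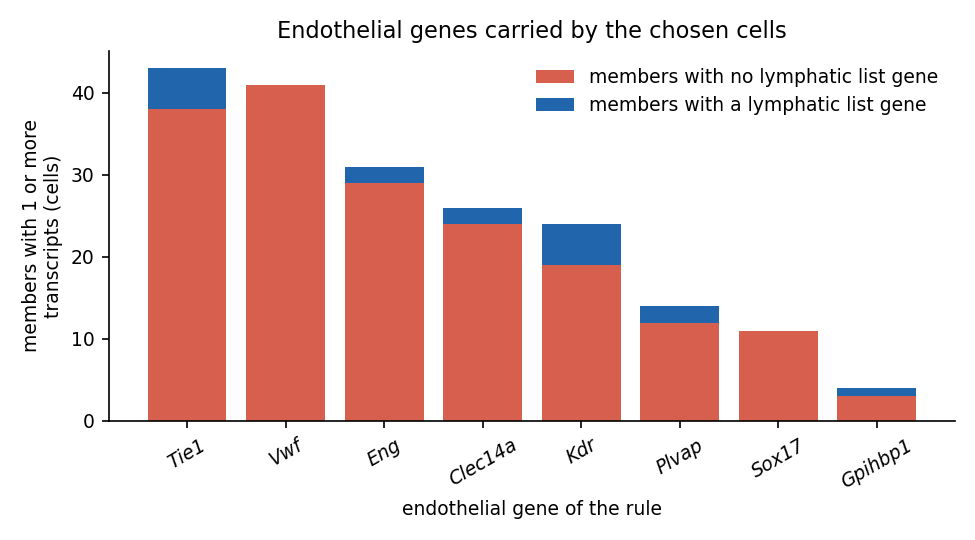
Number of the 91 endothelial cells (vertical axis) with 1 or more transcripts of each endothelial gene of the rule (horizontal axis), parted into cells with and without a gene of the lymphatic list. *Tie1* and *Vwf* were carried by 43 and 41 cells and *Gpihbp1* by 4, and no cell with a lymphatic list gene carried *Vwf* or *Sox17*.

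The label was checked by leaving each endothelial gene out of the rule in turn. Cells were then chosen by 2 or more transcripts of the other 7 genes, and the gene left out was compared with its level in all other cells under the same limits (the limit-matched cells). Levels are transcripts per 1000 transcripts outside the rule, and the test was the quasi-likelihood test of edgeR on counts summed per section, blocked by section and adjusted by the Benjamini-Hochberg method over all genes tested, at 0.05. All 7 genes with enough transcripts to be tested were higher in the chosen cells in 3 of 3 sections, and 6 of the 7 passed the test. *Eng*, *Kdr*, *Plvap*, *Clec14a* and *Sox17* had passed the filter on low counts only through the chosen cells. For them a higher level in 3 of 3 sections was thus built in by the filter. With no filter, 2 of 8 genes passed.

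Left out of the rule, *Vwf* was at 34.9, 29.3 and 23.6 per 1000 in the 68 chosen cells of sections 1, 2 and 3, and at 2.19, 2.19 and 1.58 in the limit-matched cells. All 3 chosen values lay over 10 times above the matched ones, with a log2 fold change of 3.18 (standard error 0.43, adjusted p = 0.000113 from edgeR), where 17.0% of all genes tested were called. *Eng* was at 14.2, 27.9 and 8.58 per 1000 and at 1.61, 1.49 and 1.17 in the matched cells. Its groups did not overlap either, but for *Eng* the filter on low counts had built this in. The log2 fold change was 2.62 (standard error 0.56, adjusted p = 0.000109 from edgeR, 26.0% of genes called).

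*Plvap* was 4.72, 11.5 and 6.66 per 1000 in the chosen cells and 0.764, 0.441 and 0.308 in the matched cells. The log2 fold change was 3.43 (adjusted p = 4.78e-05 from edgeR, 23.8% of genes called), on 8 transcripts. *Clec14a* had a log2 fold change of 3.18 (adjusted p = 3.81e-05 from edgeR, 25.5% called), *Kdr* of 2.24 (adjusted p = 0.0032, 22.2% called) and *Sox17* of 1.86 (adjusted p = 0.038, 30.6% called). *Tie1* did not pass, with a log2 fold change of 2.04 (adjusted p = 0.0948 from edgeR, 17.3% called), and 7 of its 11 transcripts were in section 1. *Gpihbp1* was not tested, with 1 transcript in 88 chosen cells. The 4 markers *Vwf*, *Eng*, *Kdr* and *Plvap* each passed without having been used in the choice. For *Eng*, *Kdr* and *Plvap* a higher level was built in by the filter on low counts, so their passing is a description. With 1 section left out, 2 or 3 of the 7 genes passed (3 without section 1, 2 without section 2 and 3 without section 3).

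**Figure D2:**
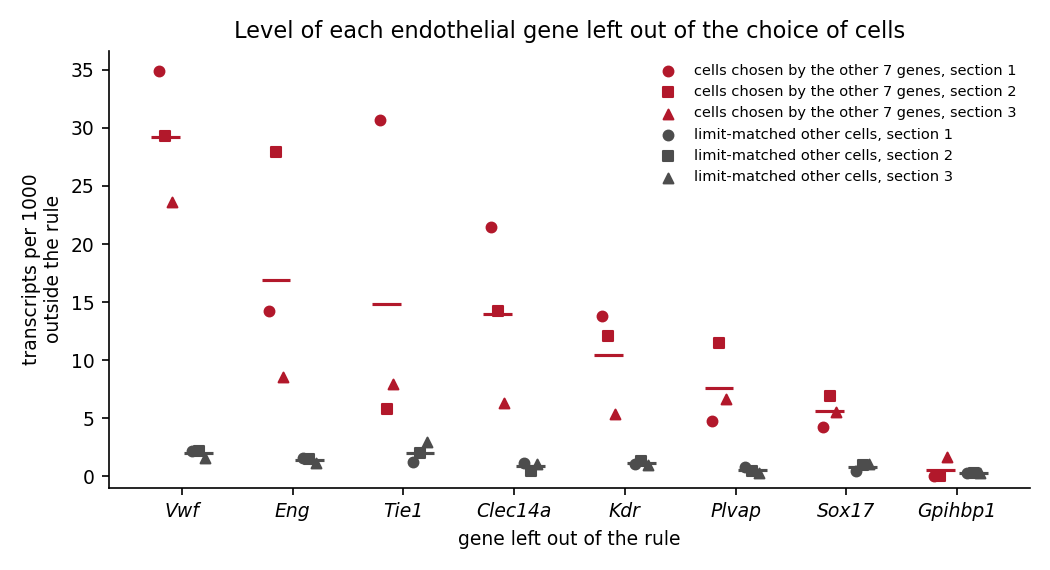
Level of each endothelial gene in transcripts per 1000 outside the rule (vertical axis) when it was left out of the choice of cells (horizontal axis), with 1 point per section and a bar at the mean of 3 sections. For all genes except *Gpihbp1*, every section of the chosen cells lay above every section of the limit-matched cells. For *Eng*, *Kdr*, *Plvap*, *Clec14a* and *Sox17* the filter on low counts had built this in, so it is a description.

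The remaining genes were compared between the 91 endothelial cells and the 4248 limit-matched cells, for which the endothelial sum alone differed in the rule. The classes differed in depth too, with a median of 15 transcripts in the endothelial and 8 in the limit-matched cells. The part of depth in the differences was not tested. The rule genes were left out of the totals and of the test. The endothelial cells were higher for genes of vessels and of mural cells and lower for genes of myelinating glia. Of the 455 genes outside the rule, 103 passed the filter on low counts and 31 were called (30.1%), with 13 higher (12.6%) and 18 lower (17.5%). The median log2 fold change of all genes tested was -0.51. With library size in place of TMM scaling the median was -0.051 and the split was 17 higher and 9 lower, including all 13 genes called higher by the main scaling and 9 of its 18 lower ones. The calls rested much on section 3, with 20 genes called without section 1, 13 without section 2 and 4 without section 3, none of the last higher. They also changed when the cells at the limit were left out. The cells left were 18 with 3 and 14 with 4 or more endothelial transcripts. These held 207 and 234 transcripts outside the rule, and the part of lower depth in the change was not tested. With an endothelial sum of 3 or more 20 genes were called, 1 higher and 19 lower, and with no filter on low counts 30 were called, 3 higher and 27 lower.

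Of the 9 general endothelial genes listed, 9 were tested, 6 were higher and none lower, with a median log2 fold change of 1.97 against -0.51 over all genes tested. The list summed to 120, 132 and 132 per 1000 in the endothelial cells and to 21.2, 26.1 and 29 in the limit-matched cells. *Podxl*, a sialomucin of the luminal surface, was at 24.9, 34.8 and 35.7 per 1000 in the endothelial cells of sections 1, 2 and 3, and at 2.81, 3.27 and 4.74 in the limit-matched cells. The sections of the endothelial cells stood well above all those of the matched cells, and the log2 fold change was 2.62 (standard error 0.47, adjusted p = 1.44e-06 from edgeR).

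*Calcrl*, the receptor for the sensory peptide CGRP and for adrenomedullin, was at 20.7, 27.9 and 7.75 per 1000 in the endothelial cells, and at 2.3, 1.86 and 2.37 in the limit-matched cells. Section 3 was the lowest of the endothelial values and was still above each matched value (log2 fold change 2.36, standard error 0.61, adjusted p = 0.00125 from edgeR). *Ramp1*, whose protein joins *Calcrl* to make the CGRP receptor, had 0 transcripts in the endothelial cells, which allows up to 2.56 per 1000, and was at 1.37 ± 0.371 in the limit-matched cells, so a difference was not detectable at this depth.

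*Aqp1*, a water channel, was at 4.15, 17.4 and 18.6 per 1000 against 1.79, 2.12 and 1.85. The groups did not overlap, although section 1 rested on 1 transcript (log2 fold change 2.42, standard error 0.61, adjusted p = 0.00089 from edgeR). *Cav1*, the coat protein of caveolae, was at 29, 20.9 and 32.6 per 1000 against 7.32, 9.55 and 9.68 (log2 fold change 1.16, standard error 0.42, adjusted p = 0.0269 from edgeR). *Ctla2a*, a cysteine protease inhibitor, and *Mef2c*, a transcription factor of muscle and vessels, were each higher in 3 of 3 sections on 8 transcripts (log2 fold changes 2.02 and 1.97). Neither was called with no filter on low counts. Both had too few transcripts in the limit-matched cells to pass it without the endothelial cells, so a higher level was favoured by it. Their part in the count of higher list genes is therefore a description. The other 3 members did not pass. The caveola gene *Cavin2* had a log2 fold change of 1.30 (adjusted p = 0.149 from edgeR), the G protein subunit *Gng11* of 1.5 (adjusted p = 0.0836) and the transcription factor *Mecom* of 0.90 (adjusted p = 0.397).

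Mural genes were higher as well. Of the 14 mural genes listed, 6 were tested, 4 were higher and none lower, with a median log2 fold change of 1.91. *Myh11*, the smooth muscle myosin, was at 12.4, 17.4 and 27.9 per 1000 in the endothelial cells and at 1.96, 1.94 and 3.04 in the limit-matched cells (log2 fold change 2.60, standard error 0.58, adjusted p = 0.000173 from edgeR). *Rgs5*, a regulator of G protein signalling known from pericytes, was at 12.4, 27.9 and 18.6 per 1000 against 3.24, 1.68 and 2.83 (log2 fold change 2.43, standard error 0.58, adjusted p = 0.000443 from edgeR). For both genes every endothelial section lay above every matched one. Of the 26 *Myh11* transcripts 21 were in the 59 cells with exactly 2 endothelial transcripts (28.7 per 1000), against 9.66 in cells with 3 and 12.8 in cells with 4 or more. With an endothelial sum of 3 or more *Myh11* was no longer called (log2 fold change 0.52, adjusted p = 0.775 from edgeR), nor was *Rgs5* (log2 fold change 1.28, adjusted p = 0.343). Unlike *Myh11*, *Rgs5* was not highest in the cells with exactly 2. It was at 19.1, 14.5 and 25.6 per 1000 in cells with 2, 3 and 4 or more, on 14, 3 and 6 transcripts.

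*Mustn1*, a small nuclear protein of muscle, was higher in 3 of 3 sections on 7 transcripts (log2 fold change 1.93, adjusted p = 0.0203 from edgeR), but was not called with no filter. It needed the endothelial cells to pass the filter, so a higher level was favoured by it. *Mylk*, the myosin light chain kinase, was at 4.15, 0 and 21.7 per 1000 against 2.47, 2.21 and 1.8. It was higher in 2 of 3 sections, and its call (log2 fold change 1.89, adjusted p = 0.0203 from edgeR) turned to -1.27 without section 3, which held 14 of its 15 transcripts, and to -1.58 with an endothelial sum of 3 or more, as 14 of the 15 were in cells with exactly 2. *Tagln*, a smooth muscle gene, had 2 transcripts in the endothelial cells and went the other way, lower in 2 of 3 sections. It did not pass (log2 fold change -1.07, adjusted p = 0.509 from edgeR). *Myl9*, the other tested member that did not pass, was higher in 2 of 3 sections (log2 fold change 0.28, adjusted p = 0.872 from edgeR). *Higd1b*, a pericyte gene, was at 0 in the endothelial cells and had 7 transcripts in all limit-matched cells.

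Of the 91 cells, 42 carried 1 or more mural transcripts and 20 carried at least 2. The general endothelial list was at 132 per 1000 in the 42 cells with a mural gene and at 126 in the 49 without. *Vwf* was in 19 of the 42 and in 22 of the 49, and *Kdr* in 8 and in 16. When the 42 cells were left out, an alternative chosen after the data were seen, 10 genes were called, 1 of them higher. That run left out the mural genes too, so *Myh11*, *Rgs5*, *Mylk* and *Mustn1* could not be called. Of the 13 higher genes 7 were tested in it. The 49 cells left held 530 transcripts outside the rule, and the part of lower depth was not tested. Segmented cells can hold transcripts of neighbours, and the part of neighbouring mural cells in these levels was not tested.

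**Figure D3:**
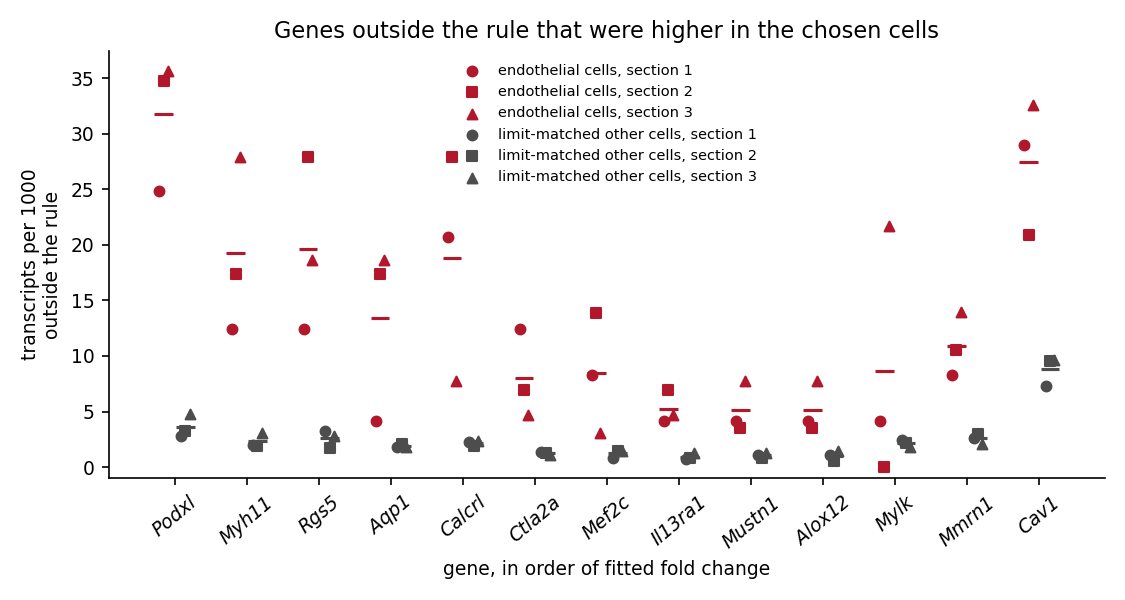
Level in transcripts per 1000 outside the rule (vertical axis) of the 13 genes called higher in the endothelial cells (horizontal axis, in order of fitted log2 fold change), with 1 point per section for the endothelial and the limit-matched cells and a bar at the mean of 3 sections. The sections of the 2 classes did not overlap for 12 of the 13 genes, the exception being *Mylk*. The genes were picked by their call, so this separation is a description and adds no support. Uncalled genes such as *Anxa2*, *Bgn* and *Timp3* were also higher in 3 of 3 sections, and *H2-K1*, not called, did not overlap either.

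A small group of the cells, all at the limit of the rule, carried lymphatic genes. *Mmrn1*, a multimerin found in platelets and lymphatic endothelium, was at 8.3, 10.5 and 14 per 1000 in the endothelial cells and at 2.64, 3.01 and 2.11 in the limit-matched cells (log2 fold change 1.71, standard error 0.66, adjusted p = 0.0374 from edgeR). With an endothelial sum of 3 or more no *Mmrn1* transcript was left in the endothelial cells, and the call was lost. It was the 1 gene of the 5 lymphatic and sinusoidal genes listed that could be tested. *Mmrn1* was carried by 8 of the 91 cells with 14 transcripts, *Prox1*, the master transcription factor of lymphatic endothelium, by 4 cells with 5, and the hyaluronan receptor *Lyve1* by 2 cells with 3. *Dnase1l3* and *Oit3*, genes of sinusoidal endothelium, were at 0.

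In all, 9 of the 91 cells carried a gene of this list, 8 of them with at least 2 such transcripts, and all 9 had exactly 2 endothelial transcripts, the fewest the rule allows. None of the 9 carried *Vwf*, compared with 41 of the other 82 cells, and none carried *Sox17*, compared with 11 of the 82. *Kdr* was in 5 of the 9 and *Tie1* in 5, so these cells entered through other genes of the rule than *Vwf*. *Gng11* was in 4 of the 9 and in 4 of the 82, *Calcrl* in 3 of the 9 and in 12 of the 82, and *Podxl* in 1 of the 9 and in 23 of the 82. *Myh11* and *Rgs5* were in none of the 9. This split was made after the values were seen and was not tested. Without the 9 cells, 25 genes were called and 11 were higher. The lymphatic genes were left out of that run too, so *Mmrn1* could not be called.

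Among the other genes called higher, *Il13ra1* encodes a subunit of the interleukin-13 receptor. It was at 4.15, 6.97 and 4.65 per 1000 in the endothelial cells and at 0.681, 0.796 and 1.24 in the limit-matched cells, on 6 transcripts in 6 cells (log2 fold change 1.93, standard error 0.58, adjusted p = 0.0372 from edgeR). *Alox12*, a lipoxygenase that oxidizes arachidonic acid, was at 4.15, 3.48 and 7.75 per 1000 against 1.11, 0.53 and 1.44 (log2 fold change 1.91, adjusted p = 0.0213 from edgeR). *Il13ra1* and *Alox12* had passed the filter on low counts only through the endothelial cells, so a separation of their groups was built in. Neither was called with no filter. With *Calcrl*, *Il13ra1* made 2 of the 3 tested genes higher in a list of 12 peptide and cytokine receptors.

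*H2-K1*, a class I antigen presentation gene, did not pass. It was at 62.2, 69.7 and 52.7 per 1000 in the endothelial cells and at 28.2, 27 and 29.1 in the limit-matched cells, with a log2 fold change of 0.57 (adjusted p = 0.0715 from edgeR). None of the 17 chemokines and chemokine receptors or of the 6 microvessel genes listed passed the filter. Of the 6 angiogenic genes 2 were tested and none passed, with *Angpt2*, an antagonist of the Tie2 receptor, in 5 endothelial cells and *Vcam1*, an adhesion molecule of inflamed endothelium, at 0. The 6 interferon response genes summed to 0, 10.5 and 4.65 per 1000 against 5.96, 5.04 and 4.74, with 1 gene tested and none called.

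Genes of glia were lower. Of the 6 glia genes listed 5 were tested and 4 were lower, with a median log2 fold change of -3.09. *Prx*, which encodes the myelin protein periaxin of Schwann cells, was at 12.4, 10.5 and 10.9 per 1000 in the endothelial cells and at 70, 68.8 and 65.1 in the limit-matched cells. The endothelial values were close to each other and far below the others (log2 fold change -3.09, standard error 0.32, adjusted p = 1.03e-16 from edgeR). *Pmp22*, the peripheral myelin protein, was at 4.15, 6.97 and 10.9 per 1000 against 55.1, 53 and 53.3 (log2 fold change -3.15, standard error 0.36, adjusted p = 3.73e-14 from edgeR).

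*Cryab*, a small heat shock protein, had a log2 fold change of -3.06. Other genes that were lower in 3 of 3 sections included the axonal and juxtaparanodal potassium channel *Kcna1* (-3.07), the creatine synthesis gene *Gatm* (-2.75) and *Ndrg1*, a gene of myelinating Schwann cells (-1.98). *Prx*, *Pmp22*, *Gatm* and *Ndrg1* were called in every alternative run for this comparison. Since most limit-matched cells were not of one type, these differences are against a mixture in which 2549 of 4248 cells carried a glia gene. Of the endothelial cells, 21 carried one.

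Of the 18 fibroblast and matrix genes listed, 15 were tested, 4 were lower and none higher, with a median log2 fold change equal to that of all genes tested (-0.51). *Igfbp6*, a binding protein of insulin-like growth factors, fell by 2.51 on the log2 scale, and *Thbs4*, a thrombospondin of tendon and vessels, fell by 2.46. The other 2 of these 4, *Mfap5* and *Pcolce2*, were at 0 in the endothelial cells, as were *Sostdc1*, *Cd79a* and *S100a4*, so that 5 of the 18 genes called lower had passed the filter only through the limit-matched cells. Against the limit of 3 transcripts over all 91 cells (2.56 per 1000), *Sostdc1*, a secreted antagonist of BMP and Wnt signals, was at least 2.09-fold lower. *Mfap5* and *Pcolce2* were at least 1.17-fold and 1.01-fold lower, and *Cd79a* and *S100a4* were under that limit in the limit-matched cells too, so for these 4 no difference can be read at this depth.

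Transcripts typical of other cells were present in the endothelial cells. The 14 other neuron genes summed to 33.2, 48.8 and 51.2 per 1000 against 53.6, 49.1 and 48.3 in the limit-matched cells, and 26 of the 91 cells carried one. The 15 macrophage genes summed to 8.3, 38.3 and 15.5 against 16.4, 17.9 and 16.1, with 19 cells carrying one and *Pf4*, *Ms4a7*, *Ms4a6c* and *Cd5l* at 0. The 18 matrix genes summed to 87.1, 83.6 and 112 against 98.3, 100 and 92.7. These sums overlapped between the classes, and the part of neighbouring cells in them was not tested. The lymphocyte genes *Cd3d*, *Cd3e* and *Cd8a* were at 0.

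Levels outside the rule were also followed over the number of endothelial transcripts in a cell. *Podxl* was at 2.44 per 1000 in cells with no endothelial transcript, 24.2 with 1, 36.9 with 2, 48.3 with 3 and 8.55 with 4 or more. *Calcrl* was at 1.93, 6.34, 12.3, 19.3 and 21.4, the highest in the cells with 4 or more. *Prx* was at 69.9, 31, 16.4, 0 and 4.27 over the same classes. The 237 cells just outside the limit thus lay between the cells with none and the cells with 2 for all 3 genes, while the 14 cells with 4 or more held 234 transcripts outside the rule and 2 of *Podxl*. These values have no test.

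**Figure D4:**
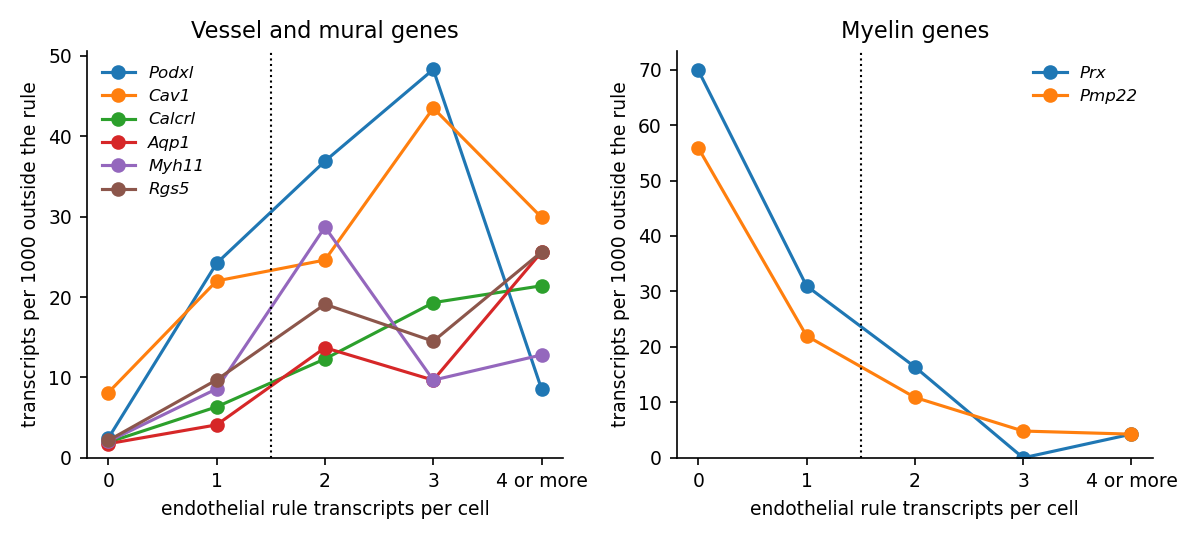
Level in transcripts per 1000 outside the rule (vertical axes) of vessel and mural genes (left) and myelin genes (right) in cells with 0, 1, 2, 3 and 4 or more endothelial transcripts (horizontal axes), summed over 3 sections, where the dotted line marks the limit of the rule. *Prx* was at 69.9 with none and 16.4 with 2, and *Podxl* at 2.44 and 36.9.

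Against all 5271 other non-neuronal cells, which include fat-like cells, 128 genes were tested and 25 were called (19.5%), with 9 higher (7.03%) and 16 lower (12.5%). The median log2 fold change was -0.58, and with library size in place of TMM it was -0.0185 with 18 higher and 12 lower. *Podxl* (log2 fold change 2.36), *Calcrl* (2.23), *Ctla2a* (1.94), *Myh11* (2.83), *Mustn1* (2.22), *Mylk* (1.75), *Mmrn1* (1.96), *Alox12* (2.14) and *Il13ra1* (1.99) were higher. These 9 were also among the 13 above, from the same endothelial cells and most of the same other cells. *Ctla2a*, *Mustn1*, *Alox12* and *Il13ra1* again needed the endothelial cells to pass the filter on low counts. The other 4 did not pass here. *Cav1* had a log2 fold change of 0.26 (adjusted p = 0.68 from edgeR), *Rgs5* of 1.29 (adjusted p = 0.0695), *Aqp1* of 1.47 (adjusted p = 0.0695) and *Mef2c* of 1.64 (adjusted p = 0.0707). The other cells here include 995 fat-like cells, in which *Cav1* was at 39.6 ± 1.46 and *Rgs5* at 15.4 ± 6.79 per 1000 (SD, n = 3 sections). With 1 section left out, 14 (without section 1), 11 (without section 2) and 16 (without section 3) genes were called, and 13 without the cells carrying a mural gene. The mural genes were left out of that last run too.

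The limits on *Car3*, *Pck1* and *Cd36* kept fat-like cells out of the endothelial cells but not out of the others, so genes of fat cells had to be lower here, and their values are a description. *Hp*, which encodes haptoglobin, had 1 transcript in the endothelial cells and was at 24.4, 27.2 and 23.6 per 1000 in the others. *C3*, the complement component, had 2 transcripts and was at 15.7, 15.7 and 14.2. *Pparg*, the transcription factor of fat cells, was at 0 in the endothelial cells and at 7.17, 8.66 and 7.44 in the others. Against the limit-matched cells 2 of the 6 further fat genes listed were tested and none passed, with the lipase gene *Mgll* at a log2 fold change of -1.10 (adjusted p = 0.301 from edgeR), and *C3* did not pass either (log2 fold change -0.83, adjusted p = 0.623).

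Endothelial cells were next compared with 228 cells that met the same limits, had fewer than 2 endothelial transcripts and had at least 2 transcripts of 6 matrix genes. These 6 genes were left out of the test but kept in the totals of the levels below. The levels of other genes in the matrix cells are lowered by this, and need not match the fold changes. In this small comparison 16 genes were tested and 8 were called (50.0%), with 4 higher (25.0%) and 4 lower (25.0%). *H2-K1* was at 62.2, 69.7 and 52.7 per 1000 in the endothelial cells and at 15, 9.92 and 17.5 in the matrix cells (log2 fold change 1.81, standard error 0.32, adjusted p = 4.18e-05 from edgeR). *Podxl* was at 3.47, 1.1 and 1.75 in the matrix cells (log2 fold change 3.76, standard error 0.85, adjusted p = 0.000796 from edgeR). *Cav1* (log2 fold change 1.55) and *Timp3* (1.04), an inhibitor of matrix proteases, were also higher.

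The proteoglycan gene *Bgn* was at 20.7, 24.4 and 27.9 per 1000 in the endothelial cells and at 74.1, 54 and 66.9 in the matrix cells (log2 fold change -1.64, adjusted p = 0.0353 from edgeR). *Igfbp6* (log2 fold change -2.72), the channel *Trpm3* (-2.96) and *Serpinf1* (-2.86) were lower too. *Ptn*, a heparin-binding growth factor, did not pass, at 37.3, 59.2 and 55.8 against 85.6, 62.8 and 68.6 (adjusted p = 0.562 from edgeR). Without section 1, 13 genes were called, and without section 2 or section 3 none (3 at an unadjusted p under 0.05 in each).

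Cells with at least 2 *Cd36* transcripts and few of *Car3* and *Pck1* were another class with vessel genes, but held 330 transcripts outside the rule in 28 cells. Of all genes *H2-K1* alone passed the filter, and its fold cannot be read because the scaling then rests on it. With no filter, edgeR called 0 of 263 genes, and 12 had an unadjusted p under 0.05. Side by side, *Gpihbp1* was in 4 of the 91 endothelial cells and in 7 of the 28 *Cd36* cells, and *Vwf* in 41 and in 2. The general endothelial list summed to 40, 230 and 133 per 1000 in the *Cd36* cells of sections 1, 2 and 3. In the endothelial cells it was at 120, 132 and 132, so this sum did not set them apart from the *Cd36* cells. *Aqp1* was at 4.15, 17.4 and 18.6 per 1000 in the endothelial cells and at 26.7, 29.6 and 50 in the *Cd36* cells. *Myh11*, *Mmrn1* and *Gng11* were at 0 in the *Cd36* cells. A count of 0 there allows 3 of the 330 transcripts. This limit lies above the mean of *Gng11* in the endothelial cells (7.89 per 1000) and close to that of *Mmrn1* (10.9). For these genes the zeros therefore show no clear difference. The rule limited *Cd36* and counted *Gpihbp1* and *Vwf*, so the shares of cells are a description. Endothelial genes were also found in the 995 fat-like cells, with *Kdr* at 8.44 ± 0.736 and *Gpihbp1* at 6.97 ± 1.01 per 1000 (SD, n = 3 sections) and *Plvap* at 0.0659 ± 0.114.

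Among the 91 cells, the 41 with *Vwf* and the 50 without it had 481 and 692 transcripts outside the rule, and no gene passed the filter on low counts in their comparison. With no filter, edgeR called 0 of 238 genes, with 5 at an unadjusted p under 0.05. *Cav1* had 22 transcripts in the cells with *Vwf* and 12 in those without, and *Ptn* had 19 and 43. *Podxl* was at 29.1 and 36.1 per 1000 and *H2-K1* at 64.4 and 54.9. Differences between these subsets were not detectable at this depth.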

How the data were processed

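Counts were made and deposited by the authors as whole numbers of transcripts for 470 genes in 9785 segmented cells of 3 vagal ganglia sections, with no normalization. The methods name Xenium Ranger 1.7.1 and Seurat 5.10, while thresholds of segmentation are not given in the sources used here. All cell columns were mapped to a section (0 not mapped). The members, gene lists and tests were chosen with earlier results of these data known.

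As cells are no replicates, each class was summed within each section, without the 15 genes of the rule. Sums held 241 to 645 transcripts for endothelial and 11312 to 19424 for limit-matched cells. A count of 0 over all endothelial cells allows 3 transcripts, or 2.56 per 1000, for counting error only. The test was edgeR's quasi-likelihood test (version 4.0.16, R 4.3.3) after TMM scaling and filterByExpr, blocked by section because both classes come from the same sections, with p-values adjusted by the Benjamini-Hochberg method at 0.05. Values were otherwise computed in Python 3.11.15 with pandas 2.3.3 and scipy 1.17.1. No doublet caller was run.

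The rule for named genes takes, of the called genes that moved one way in 3 of 3 sections, the 15 higher and 10 lower ones with the greatest fold, the rule genes, and members of the lists, not all of which are given. Genes in the paragraphs on lymphatic and *Vwf*-carrying cells were chosen after their values were seen, as were *Ramp1*, *Tagln*, *Higd1b*, *Cd79a*, *S100a4* and other list members at 0. On simulated sums for the limit-matched comparison (107 genes in the step), planted log2 changes of 1 were found in 10.5% and changes of 2 in 34.6% of the genes tested, and 1 of 62 unchanged genes was called falsely. For all other non-neuronal cells (122 genes) these were 25% and 42.9%, and 3 of 58. The simulated sums were drawn once from profiles pooled over both classes, with a fixed dispersion that was not estimated from these data. The rates hold for that setting only. Alternatives were library size alone, DESeq2 1.42.0, no filter, no block, totals over all genes, each section left out, and stricter limits on cells.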

Additional observations from a re-analysis of the deposited data

How the results depend on the processing

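Against limit-matched cells, 31 genes were called in the main setting, and 18 with 10 or more transcripts per cell, 20 (1 higher) with an endothelial sum of 3 or more, 20 (7 higher) with a neuron sum of 0 and 10 without cells carrying a mural gene (an alternative chosen after the data were seen), and 4 to 20 with 1 section left out. Against all other non-neuronal cells, 25 became 11 (1 higher) with an endothelial sum of 3 or more, 38 (2 higher and 36 lower) with no filter, 13 without cells carrying a mural gene, and 11 to 16 with 1 section left out. In both comparisons the run without cells carrying a mural gene left out the mural genes as well. Against matrix gene cells, 8 became 4 with 10 or more transcripts, 2 with an endothelial sum of 3 or more, 3 with a neuron sum of 0, and 0 to 13 with 1 section left out. Of the endothelial genes left out of the rule, 6 of 7 passed, 2 of 8 with no filter and 2 to 3 with 1 section left out. The share of endothelial cells was 1.68%, 0.625% with an endothelial sum of 3 or more and 2.37% with 10 or more transcripts. DESeq2 called 23, 19, 7 and 5 in these 4 comparisons, and without the replicate block 36, 29, 8 and 7 genes were called.

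Directions turned in few cases. With an endothelial sum of 3 or more, the fitted log2 fold change of *Mmrn1*, with no transcript left in the endothelial cells, was -7.39 against limit-matched and -7.41 against all other cells, that of *Mylk* was -1.58 and -1.35, and that of *H2-K1* was -0.41 against limit-matched cells. With 1 section left out, *Mylk* went from -1.27 (without section 3) to 2.37 against limit-matched cells and from -1.17 (without section 3) to 2.2 against all other cells, and *Mecom* from -0.81 (without section 3) to 1.17, and *Mecom* was at -1.09 without cells carrying a mural gene. *H2-K1* was at -0.22 with no filter. *Cav1*, not called against all other cells, was there at -0.0943 with an endothelial sum of 3 or more, -0.0119 with a neuron sum of 0, -0.585 with no filter and -0.221 to 0.361 with 1 section left out. The causes were not tested. Of the 13 genes called higher against limit-matched cells, 11 kept their sign in every alternative in which they were tested and none kept its call in all of them, while all 18 lower genes kept their sign and 4 their call.

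The comparison with *Cd36* cells could not be fitted with DESeq2, with 10 or more transcripts or with an endothelial sum of 3 or more. The comparison by *Vwf* could be fitted with no filter and without section 1 only, where 0 of 2 genes were called, and the one by *Gpihbp1*, with 4 cells and none in section 2, was not run. Depth limits all values, with 24 of 455 genes at 10 or more transcripts in the endothelial cells.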
